A study of Mus musculus with 6 samples.

Results

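Mouse gene symbols that end in "os" name a transcript from the opposite strand of a neighbouring gene, and the letters before "os" name that gene, the sense partner. Members were every symbol of at least 6 characters with this ending, without Dlx6os1, that held at least 50 unique molecular identifiers (UMIs, the count of distinct RNA molecules) summed over all barcodes of the 6 libraries. Members were thus chosen by their name and their total of UMIs, and their presence is not a result. Of 32285 features, 299 symbols had the ending, 204 reached the limit and 95 did not. Just inside the limit were Uckl1os with 50 UMIs, Rapgef3os1 with 51 and Il1bos with 52, and just outside were Dgkeos and Ube4bos3 with 46 each and Dhx58os with 45.

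The libraries came from nuclei of the prelimbic region (PL) of the medial prefrontal cortex of male C57BL/6 mice, counted by droplet single-nucleus RNA sequencing. Run males were raised by dams that had a running wheel after giving birth and Sed males by dams without a wheel, and from weaning both kinds lived either in groups (GH) or in social isolation (SI) in cages without wheels. Cohort 1 held GH males only, with a Run and a Sed library, and cohort 2 held both kinds under both housings, with 4 libraries, each from a pool of 3 males. Cohort 1 males had been through behavioural tests and cohort 2 males had not. The study took the cohort 1 males by rank, at the top and bottom of their group, and states no such choice for cohort 2. The labels give P21, read here as postnatal day 21, in a field for gestational day. The methods of the study describe adult males of about 4 months at tissue collection. With 1 pooled library per condition and cohort, no condition was repeated within a cohort. For conditions, p-values measure the spread that terms for cohort, maternal environment and housing leave over. That spread holds differences between pools together with any Run effect that differs between cohorts or housings. For cell classes and pairs of genes, p-values measure the spread over pools.

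Antisense transcription is widespread at mammalian genes. An opposite-strand RNA can arise from a promoter shared with its partner, run into the partner's start or end, or lie wholly inside the partner's introns and exons, and many such RNAs stay in the nucleus near the site where they were made. For a few of them an effect on the neighbouring gene is known, and for most no function has been assigned. In the cortex, several carry the names of transcription factors of cell identity, such as Emx2os, Sox5os4 and Prox1os.

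Of the 204 members, 195 had their sense partner in the feature table, and the annotation placed each of these on the strand opposite its partner. Every partner was annotated as protein coding. The 195 members belonged to 170 different partners, and 45 members shared 20 partners, for example 3 each at Grip1 and Sox5, so that these are not independent loci. By biotype, 171 members were antisense, 16 protein coding, 7 lincRNA, 7 processed transcripts and 3 bidirectional promoter lncRNAs. By position, 85 lay wholly inside the partner, 52 overlapped the partner's start, 28 were divergent (starting near the partner's start and running away from it without overlap), 18 overlapped its end, 6 lay downstream end to end, and 6 spanned the partner. The remaining 9 had no partner in the table: Micos10, Micos13, Selenos, Nanos1, Nanos2 and Nanos3, which are protein-coding genes whose names only happen to end this way, and Zbtb8os, Proscos and Ict1os. Whether the counting used the strand of the reads was not given in the sources used here, so reads from an overlapped stretch could not be assigned to a strand with certainty.

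Promoter sequences of members that begin close to their partner, and of a member inside its partner for contrast, show how the start sites differ. RefSeq promoters (GRCm38.p6, 250 bases before to 50 after the start) were found for 124 of the 204 members, and CG dinucleotides are in capitals. The lines give the 4 members with the shortest distance between the 2 starts among those named by rule that had a promoter in the table, and Far1os, chosen after its values were seen as the member inside its partner with the most UMIs that had a promoter in the table.
Mkln1os, chr6:31398724-31399023, minus strand: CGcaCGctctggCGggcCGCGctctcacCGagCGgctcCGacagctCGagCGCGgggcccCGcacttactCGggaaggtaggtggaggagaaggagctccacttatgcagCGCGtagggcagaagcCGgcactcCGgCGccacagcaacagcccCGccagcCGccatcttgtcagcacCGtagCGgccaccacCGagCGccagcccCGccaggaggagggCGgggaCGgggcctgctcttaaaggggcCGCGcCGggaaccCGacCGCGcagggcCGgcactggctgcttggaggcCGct
Cep83os, chr10:94688564-94688863, minus strand: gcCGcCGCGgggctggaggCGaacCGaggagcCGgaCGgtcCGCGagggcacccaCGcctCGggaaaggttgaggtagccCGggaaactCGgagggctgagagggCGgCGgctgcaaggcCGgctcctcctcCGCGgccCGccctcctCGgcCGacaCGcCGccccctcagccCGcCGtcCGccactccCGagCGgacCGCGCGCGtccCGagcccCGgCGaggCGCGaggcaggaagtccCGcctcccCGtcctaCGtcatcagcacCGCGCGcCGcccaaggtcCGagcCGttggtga
Smc2os, chr4:52438915-52439214, minus strand: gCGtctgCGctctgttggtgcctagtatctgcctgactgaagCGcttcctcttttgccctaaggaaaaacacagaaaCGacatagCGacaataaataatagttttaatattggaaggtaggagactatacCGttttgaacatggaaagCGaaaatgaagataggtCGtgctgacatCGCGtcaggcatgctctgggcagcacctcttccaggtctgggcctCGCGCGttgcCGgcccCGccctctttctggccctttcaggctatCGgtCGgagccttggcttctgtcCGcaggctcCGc
Zfp335os, chr2:164911183-164911482, plus strand: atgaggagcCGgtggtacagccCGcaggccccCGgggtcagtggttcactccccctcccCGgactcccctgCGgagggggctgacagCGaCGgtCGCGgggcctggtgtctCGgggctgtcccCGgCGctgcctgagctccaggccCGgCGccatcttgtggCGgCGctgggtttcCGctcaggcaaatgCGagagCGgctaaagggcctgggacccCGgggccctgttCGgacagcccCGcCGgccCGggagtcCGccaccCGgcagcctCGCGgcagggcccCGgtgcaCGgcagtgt
Far1os, chr7:113564938-113565237, minus strand: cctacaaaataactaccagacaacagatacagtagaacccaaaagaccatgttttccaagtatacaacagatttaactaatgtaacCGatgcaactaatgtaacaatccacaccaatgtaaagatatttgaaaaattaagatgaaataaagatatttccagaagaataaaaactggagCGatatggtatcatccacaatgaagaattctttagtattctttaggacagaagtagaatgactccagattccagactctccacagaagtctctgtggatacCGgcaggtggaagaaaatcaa

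Mkln1os and its partner start 38 bases apart and the promoter held 35 CG, more than 93.0% of the 32851 promoters in the table. Cep83os, which starts 78 bases from Cep83 on the other strand, held 46. Smc2os held 19 and Zfp335os held 30, with starts 278 and 403 bases from their partners. The next in distance, Cyp4x1os and Wdr83os, start 449 and 566 bases from their partners, held 12 and 9 and are not printed. Far1os, whose start lies deep inside Far1, held 3. At least 1 CG was found in 94.6% of all promoters of this length, and the median count was 7 over all of them, 8 over the 147 promoters of members and 19.5 over those of partners. By position the medians were 23 for 21 promoters of divergent members, 15 for 43 of members overlapping the start, 8 for 13 overlapping the end and 4 for 53 inside the partner.

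Libraries differed in depth, and most between cohorts. Cohort 1 libraries held 159049013 (Run) and 188952936 (Sed) UMIs over all barcodes, of which 32.9% and 19.0% lay in the called nuclei. Cohort 2 libraries held 19134955 to 69344415 UMIs, with 56.4% to 61.9% in nuclei. In cohort 1, 82376 and 103391 barcodes had 500 to 4000 detected genes and little mitochondrial RNA, against 5687 to 10532 in cohort 2, so that the minimum of UMIs per nucleus decided there which barcodes counted. In all, 42599 nuclei were called, 4998 to 9936 per library, with medians of 1637 to 6250 UMIs, and 34102 of them were pyramidal-like by the fixed markers (called pyramidal from here on, and likewise for the other classes). Pairs of libraries shared 5 to 22 cell barcodes. Levels below are counts-per-million values (CPM) over the UMIs in nuclei and, unless stated, count all cell classes together, so that fewer nuclei of a class and less RNA per nucleus cannot be told apart.

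Members were low-abundance transcripts with a few exceptions. They held 343270 UMIs in nuclei, with a median of 269 per member, 51 members above 1000 and 16 members at 0 in at least 1 library. Cdr1os alone held 27.7% of them. Cdr1os is a long noncoding RNA of the X chromosome (chrX:61116378-61292484, plus strand) that spans the short gene Cdr1, and the locus is also known for a circular RNA, which the 3′ counts used here do not separate. Cdr1os was at 579 CPM (Run) and 539 CPM (Sed) in cohort 1. In cohort 2 it was at 401 (GH) and 419 (SI) in Run males and at 423 (GH) and 426 (SI) in Sed males. The cohorts did not overlap, and within a cohort the values lay close together. Cdr1 itself was at 0.26 to 5.51 CPM.

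Next in abundance were Nrg3os and Sorbs2os, both inside their partners, and Zmiz1os1, which overlaps its partner's start. Nrg3 encodes neuregulin 3, a ligand of ERBB4, and Nrg3os lies wholly within it (chr14:38898302-38958794, plus strand). Nrg3os was at 90.2 CPM (Run) and 33.0 CPM (Sed) in cohort 1. In cohort 2 it was at 271 (GH) and 270.45 (SI) in Run males and at 477 (GH) and 441 (SI) in Sed males. Each cohort 2 library was above each cohort 1 library, Sed was below Run in cohort 1, and Sed was above Run in cohort 2. Nrg3 was at 4770 to 5672 CPM, so Nrg3os made up 0.69% to 8.68% of the pair. Sorbs2os (chr8:45723325-45819297, minus strand), inside the gene of an adaptor protein of the actin cytoskeleton, had the same order of Run and Sed within cohorts. It was at 39.2 CPM (Run) and 14.7 CPM (Sed) in cohort 1, and in cohort 2 at 71.0 (GH) and 82.6 (SI) in Run males and at 159 (GH) and 141 (SI) in Sed males. Zmiz1os1, at the start of a gene for a transcriptional coregulator, went the other way between cohorts, with 109 CPM (Run) and 148 CPM (Sed) in cohort 1 against 66.1 to 71.8 CPM in cohort 2.

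The rest of the 20 most abundant members held some that passed the cohort test described further on and some that did not. Ino80dos, at the start of the gene of a chromatin remodeller subunit, was at 36.9 and 38.0 CPM in cohort 1 and at 39.2 to 47.7 CPM in cohort 2, beside 50.9 to 60.0 CPM for Ino80d. Its cohort difference was 0.06 on the log2 scale and did not pass. Slc7a6os, a protein-coding gene that lies end to end with the amino acid transporter gene Slc7a6, was at 19.5 and 22.1 CPM in cohort 1 and at 41.4 to 47.4 CPM in cohort 2. Cep83os, divergent from a centriole gene, was at 17.3 and 19.7 CPM against 34.5 to 38.2 CPM, and Brip1os, divergent from a DNA repair helicase gene, at 10.4 and 13.6 against 25.4 to 37.1 CPM. In these 3 the cohorts did not overlap, and each passed the cohort test, with log2 changes of 0.96, 0.81 and 1.19. Mkln1os was at 13.9 and 17.8 CPM in cohort 1 and at 22.4 to 39.0 CPM in cohort 2, with an estimate of 0.74 that did not pass.

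Pcsk2os1 and Pcsk2os2 belong to the same partner and differed in pattern. Pcsk2os1, which overlaps the start of Pcsk2, was at 10.3 CPM (Run) and 10.5 CPM (Sed) in cohort 1 and at 20.2 to 23.3 CPM in cohort 2. Pcsk2os2, inside the gene, was at 16.8 CPM (Run) and 11.6 CPM (Sed) in cohort 1, and in cohort 2 at 11.2 (GH) and 14.2 (SI) in Run males and at 42.8 (GH) and 31.8 (SI) in Sed males. Pcsk2os1 thus separated the cohorts, whereas the cohorts overlapped for Pcsk2os2 and its Sed and Run libraries of cohort 2 did not. Pcsk2 itself was at 950 to 1239 CPM. Zfhx2os, which overlaps the end of a zinc-finger homeobox gene, was at 13.1 to 21.7 CPM, Man2c1os, at the start of a mannosidase gene, at 12.9 to 21.6 CPM, and Micos10 at 29.7 to 40.8 CPM.

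Per kilobase of gene span, members were mostly below their partners. Over 195 pairs the median ratio of member to partner level per kilobase was 0.35. The member was below the partner in 6 of 6 libraries for 114 pairs and above it in 6 of 6 for 21. The median ratio was 0.289 for members inside the partner, of which 59 of 85 were below in all libraries, 0.515 for those overlapping the start, 0.754 for divergent ones and 0.199 for those overlapping the end. The 6 downstream members had a median ratio of 3.01. Among the 20 most abundant members, Oip5os1, a downstream lincRNA, was at 24.6 to 40.3 CPM where Oip5, a centromere protein gene, was at 0.38 to 1.32 CPM, a median ratio per kilobase of 27.5. Zfp335os was at 15.1 to 31.1 CPM against 4.30 to 12.1 CPM for Zfp335, a zinc-finger gene, a ratio per kilobase of 11.4. Nrg3os came close to its partner per kilobase, with a ratio of 0.965 that ran from 0.126 to 1.73 over libraries.

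Of the 6 positions, members inside their partners varied most between libraries. Their summed level was 180.3 CPM (Sed) and 339.7 CPM (Run) in cohort 1. In cohort 2 it was 699 (GH) and 750.0 (SI) in Run males and 1326 (GH) and 1164 (SI) in Sed males. The order ran opposite to the libraries' total UMIs, from 188952936 in Sed GH of cohort 1 to 19134955 in Sed GH of cohort 2, with Run GH and Run SI of cohort 2 as the only neighbours out of place. UMIs in nuclei, the base of these levels, did not follow that order. In the order of rising level they were 35930086 in Sed GH and 52306628 in Run GH of cohort 1, then 38558546 in Run GH, 39097739 in Run SI, 20708269 in Sed SI and 11217933 in Sed GH of cohort 2. Median UMIs per nucleus in the same order were 6250, 5585, 3396.5, 4032.5, 3599.5 and 1637. They fell as the level rose, with Run GH of cohort 2 out of place. The part of depth in the levels was not tested. Members overlapping the start summed to 282 to 321 CPM in every library. The partners of the inside members summed to 17286 to 21035 CPM and were somewhat higher in cohort 1. Divergent members were at 53.3 and 59.9 CPM in cohort 1 against 115 to 121 CPM in cohort 2, and the 6 downstream members at 51.0 and 57.1 against 92.2 to 107 CPM.

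**Figure D1:**
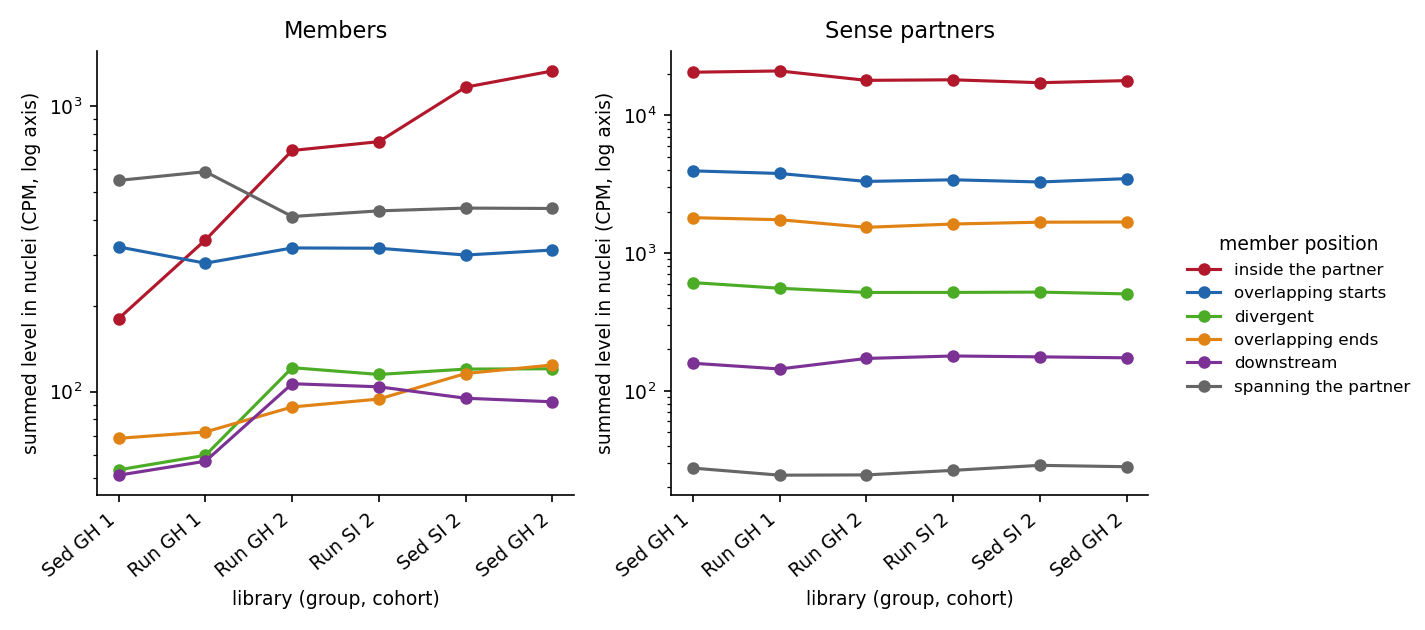
Summed level in nuclei (CPM, log axis) of members (left) and of their sense partners (right) in each of the 6 libraries, with 1 line per position of the member, and libraries ordered by the summed level of members inside their partner. Members inside the partner ran from 180.3 CPM in Sed GH of cohort 1 to 1326 CPM in Sed GH of cohort 2, while those overlapping the start stayed between 282 and 321 CPM.

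The maternal environment was compared first. In the fit over all 6 libraries with terms for cohort, maternal environment and housing (edgeR's quasi-likelihood test with Benjamini-Hochberg adjustment at 0.05), none of the 179 members that passed the filter on low counts (of 204) changed between Run and Sed, and the background was 0% of 18761 genes. At an unadjusted p under 0.05 there were 10 members and 1550 genes, and DESeq2 called 0 members and 81 genes. Without Run GH of cohort 1 the fit called 60 of 187 members, where 13.9% of genes passed, and without Sed GH of cohort 1 it called 63 of 187, where 15.6% passed. Both of these fits rest on the cohort 2 libraries alone for Run against Sed. In the fit over all 6 libraries the median log2 change of the members was -0.21. Of 78 members inside their partner, 71 had an estimate below 0, with a median of -0.49, against 50.9% of all genes below 0. Of 41 members overlapping the start, 23 were above 0, and of 16 overlapping the end, 3 were, with a median of -0.32.

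Values by library showed opposite differences in the cohorts, which count as spread in the fit over all 6 libraries. In cohort 1, Nrg3os was higher in Run GH than Sed GH by 1.45 on the log2 scale, and in cohort 2 the Run minus Sed difference was -0.81 under group housing and -0.70 under isolation. Sorbs2os gave 1.41 in cohort 1, and -1.16 and -0.77 in cohort 2. Macrod2os1, inside the gene of an ADP-ribose hydrolase, gave 1.15, then -1.90 and -0.95, and Far1os, inside the gene of a fatty acyl-CoA reductase, gave 1.82, then -0.99 and -0.57. Among 122 members with at least 10 UMIs in each library, 86 were higher in Run in cohort 1, and 36 (GH) and 37 (SI) were in cohort 2. The medians of these differences were 0.23, -0.52 and -0.29, against -0.02, 0.11 and 0.08 over all genes.

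A fit with a term for the difference between cohorts was added after these opposite differences had been seen, so it is no independent evidence of them. Cohort 1 has 1 library per arm, and the spread behind the p-values and standard errors of this fit comes from cohort 2 alone. The Run effect in cohort 2 differed from that in cohort 1 for 51 of 188 members, 50 of them lower in cohort 2, beside a background of 10.3% of genes (6.81% lower and 3.5% higher). Of 82 members inside the partner, 77 had a negative difference and 41 passed the test, with a median of -1.75. Of 45 overlapping the start, 19 were negative, with a median of 0.12. Of 16 overlapping the end, 14 were negative, with a median of -1.04. Sums over pyramidal nuclei alone gave 43 of 176 members, 42 of them lower, where 9.24% of genes passed (6.13% lower and 3.11% higher). Nrg3os had a log2 difference of -2.33 (SE 0.13), Sorbs2os -2.50 (SE 0.16) and Far1os -2.71 (SE 0.22). In cohort 2 alone, Run against Sed called 59 members, 4 higher and 55 lower, with a background of 13.4%, and 45 of the 55 were inside their partner. With 1 residual degree of freedom in these fits and 1 library for each condition, a Run effect cannot be told apart from a difference between single libraries. In each of the 3 Run and Sed pairs, the library with fewer UMIs over all barcodes had the higher summed level of inside members. By UMIs in nuclei this held for both pairs of cohort 2 and not for that of cohort 1, where Run GH had more UMIs in nuclei and the higher level. By median UMIs per nucleus it held for each of the 3 pairs, with 5585 (Run) and 6250 (Sed) in cohort 1. In cohort 2 the medians were 3396.5 (Run) and 1637 (Sed) under group housing and 4032.5 (Run) and 3599.5 (Sed) under isolation.

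Housing was compared within the same fit. No member of 179 changed between SI and GH, and the background was again 0%. At an unadjusted p under 0.05 there were 169 genes of 18761 and 1 member, Ptgs2os, a divergent neighbour of the cyclooxygenase gene Ptgs2. It was at 17.4 CPM in Sed GH and 18.9 in Run GH of cohort 2 against 14.8 in Sed SI and 12.6 in Run SI, and at 6.87 and 7.34 CPM in cohort 1. The log2 estimate was -0.41 (SE 0.16). DESeq2 called 0 members. Run and Sed males share the housing term of this fit, and their values by library went opposite ways. Among 122 members with at least 10 UMIs in each library, 41 were higher in SI in Sed males and 79 in Run males. The median log2 differences were -0.16 and 0.13, against 0.004 and -0.02 over all genes. Each compares single libraries and was not tested. For housing, edgeR called 0 of 169 members in pyramidal and 0 of 87 in inhibitory nuclei, with 0 and 2 members at an unadjusted p under 0.05, beside 175 of 17954 and 167 of 12858 genes. For the maternal environment it also called 0 of 169 and 0 of 87, beside backgrounds of 0% and 0.109% (0.0855% higher and 0.0233% lower). At an unadjusted p under 0.05 there were 9 and 7 members, beside 1330 and 789 genes, and DESeq2 called 0 in both. In pyramidal nuclei edgeR called 49 of 173 without Run GH of cohort 1, where 12.3% of genes passed, and 57 of 175 without Sed GH of cohort 1, where 13.3% passed. In inhibitory nuclei it called 10 of 102 (background 3.02%) and 10 of 103 (background 2.94%).

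Cohorts differed widely. Between cohort 2 and cohort 1, 61 of 179 members changed, 53 higher and 8 lower in cohort 2, while 39.3% of all genes passed, 20.9% higher and 18.4% lower. The share of members that passed (61 of 179) was below that background, and their direction was mostly upward, with a median log2 change of 0.75. Their partners went the other way, with 82 of 159 passing, 17 higher and 65 lower, and a median of -0.34. Cohorts differed in mice, behavioural testing, choice of males by rank, preparation and depth, which cannot be told apart. Sums over pyramidal nuclei called 60 of 169, 52 of them higher, again a share below the background of 38.2% (20.3% higher). Sums over inhibitory nuclei called 38 of 87, 33 of them higher, a share above the background of 36.2% (19.8% higher). In all nuclei, leaving out Run GH of cohort 1 gave the most members, 106 of 187, where 47.9% of genes passed, and leaving out Run SI the fewest, 34 of 187, where 21.3% passed, so the share lay above the background in the first case and below it in the second.

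Rapgef4os1, inside the gene of a cyclic AMP-activated exchange factor, had the largest rise. It was at 11.8 and 6.37 CPM in Run GH and Sed GH of cohort 1 and at 55.3 to 82.5 CPM in cohort 2, and the groups did not overlap. Its log2 change was 2.87 (SE 0.34, adjusted p = 0.00266), while Rapgef4 fell by 0.32. Nrg3os rose by 2.41 (SE 0.60, adjusted p = 0.0242) and Nrg3 had an estimate of -0.18 that did not pass. Dtnbos, inside the gene of dystrobrevin beta, rose by 1.36 and Dtnb fell by 0.41. Further members that rose included Zbtb11os1 (2.49), Smc2os (2.38), Wdr83os (2.38), Bloc1s6os (2.27), Cyp4x1os (2.17), Anxa11os (2.17) and Dnm3os (2.16). Micos13, a protein of the mitochondrial contact site complex and no antisense RNA, rose by 2.28. Zbtb11os1 stayed at or below 0.87 CPM in every library.

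The 8 members that fell in cohort 2 were led by Emx2os, which overlaps the start of the homeobox gene Emx2. It was at 14.4 and 12.1 CPM in cohort 1 and at 3.57 to 6.51 CPM in cohort 2, a log2 change of -1.54 (SE 0.21, adjusted p = 0.00407), while Emx2 was at 1.69 to 3.29 CPM. Emx2os, like Nkx2-2os, was higher in astrocytes than in pyramidal nuclei, and 419 of 8165 (Run) and 195 of 5142 (Sed) nuclei were astrocytes in cohort 1. In cohort 2 astrocytes were 325 of 9936 (GH) and 247 of 8532 (SI) nuclei in Run males and 91 of 5826 (GH) and 127 of 4998 (SI) in Sed males. The cohorts did not overlap in this share. These counts leave out astrocyte subclusters set apart for called doublets or markers of other classes. With those, the astrocyte clusters held 478 (Run) and 210 (Sed) nuclei in cohort 1. In cohort 2 they held 474 (GH) and 348 (SI) in Run males and 162 (GH) and 161 (SI) in Sed males. The share in Run GH of cohort 2 was then above that in Sed GH of cohort 1, so the cohorts overlapped. The part of the astrocyte share in the fall was not tested. Ift88os (-1.51), Nkx2-2os (-1.23), Prox1os (-1.11), Prox2os (-1.11), Zmiz1os1 (-0.98), Cdr1os (-0.59) and Micos10 (-0.51) followed. Over all barcodes in place of nuclei the estimate for Micos10 was 0.47. By position, 66 of 78 inside members were above 0, against 50.2% of all genes, with 19 called higher and 1 lower, beside the backgrounds of 20.9% and 18.4%. All 6 downstream members were above 0, with 4 called, and 13 of 41 overlapping the start were called higher and 4 lower. Without Sed GH of cohort 1, 45 of 81 inside members were above 0, 23 called higher and 9 lower, where 49.4% of genes passed in either direction. Among 164 pairs with both genes tested, the member's change was above the partner's in 130. In 19 pairs both passed in opposite directions, and in 4 both passed in the same direction. As groups, members mostly rose and partners mostly fell, so such counts can arise without a link within pairs, which was not tested.

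**Figure D2:**
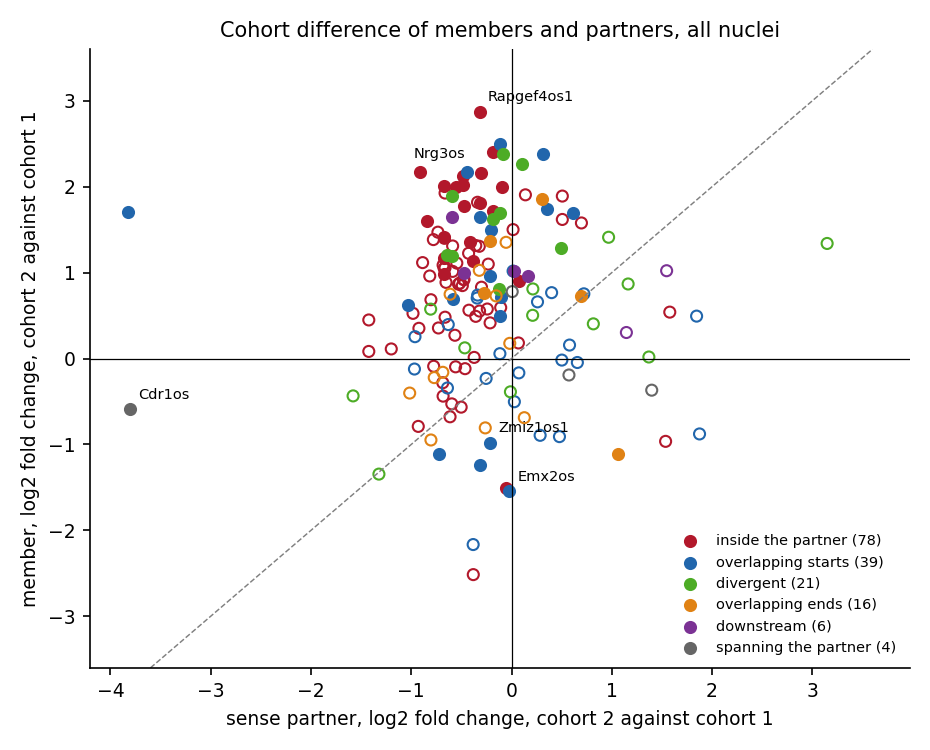
Log2 fold change of each member (vertical axis) against that of its sense partner (horizontal axis), cohort 2 against cohort 1 in all nuclei, for 164 pairs with both tested, with filled circles for members past the test and colours for the member's position. In 130 pairs the point lies above the dashed line of equal change, with Rapgef4os1 at 2.87 the highest.

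Clusters of nuclei were built without the members and their partners, so that cell classes could be compared for them. In the fit over 6 classes, only 42 members had enough counts to be tested. A member with few UMIs passed this filter where 1 class held it at a high level, as did Bcas1os2 with 184 UMIs in nuclei, while Wdr83os with 1184 spread over the classes did not, so the counts over the 42 and the size of such differences are descriptions only. Inhibitory against pyramidal nuclei called 22 of the 42 (15 higher, 7 lower), where 53.4% of genes passed (32.3% higher), and astrocytes against pyramidal nuclei called 30 of 42 (15 higher, 15 lower), where 67.5% passed (30.5% lower). These shares are near the backgrounds. The summed CPM of the 6 pyramidal markers was 3057 to 3340 over libraries in pyramidal nuclei, 227 to 818 in inhibitory, 287 to 1117 in astrocyte, 863 to 1732 in oligodendrocyte precursor, 1115 to 2347 in oligodendrocyte and 1956 to 2386 in microglial nuclei. That of the 6 inhibitory markers was 776 to 908 in inhibitory nuclei, 13.9 to 24.7 in pyramidal, 305 to 448 in astrocyte, 175 to 216 in oligodendrocyte precursor, 30.4 to 155 in oligodendrocyte and 56.7 to 222 in microglial nuclei. Only inhibitory and astrocyte nuclei had subclusters set apart for called doublets or markers of other classes, so these sums are not like for like across classes. The part of neuronal RNA in glial levels was not tested. In inhibitory and astrocyte nuclei the pyramidal sums were highest in the 2 cohort 1 libraries.

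Several members were higher in inhibitory than in pyramidal nuclei. Grip1os3, which overlaps the start of the gene of a glutamate receptor interacting protein, was at 27.0 to 54.9 CPM over libraries in inhibitory nuclei and at 1.11 to 2.21 CPM in pyramidal nuclei, a log2 difference of 4.46 (SE 0.15). Grip1os2, inside the same gene, had a difference of 3.36 (SE 0.11). Has2os, at the start of a hyaluronan synthase gene, differed by 3.83 (SE 0.25), with pooled levels of 58.5 CPM in NPY, 23.8 in VIP, 0.50 in PV and 0.99 in SST nuclei. Has2os was also higher in oligodendrocyte precursors, by 5.98 (SE 0.34), at 46.2 CPM pooled. Sox5os4, inside the transcription factor gene Sox5, differed by 2.19 (SE 0.14) and was at 79.4 CPM pooled in PV nuclei against 4.37 in SST and 6.31 in VIP nuclei. The PV level ran from 12.2 to 165 CPM over libraries. Sox5os4 was higher in oligodendrocyte precursors too, by 2.44 (SE 0.31), at 42.7 CPM pooled. Prox1os, at the start of the homeobox gene Prox1, reached 86.2 CPM pooled in VIP nuclei and 28.4 in NPY nuclei, with 0.33 in PV and 0.20 in SST nuclei.

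Other members were lower in inhibitory than in pyramidal nuclei. Zmiz1os1 was at 105 CPM pooled in pyramidal and 27.9 in inhibitory nuclei, a log2 difference of -2.06 (SE 0.10), and pooled levels were 169.9 CPM in layer 6, 132 in layer 5 and 83.9 in layer 2/3. The ranges over libraries, 118 to 238, 109 to 182 and 54.0 to 124 CPM, overlapped. They span both cohorts, between which Zmiz1os1 differed, and the layers were not compared within libraries. Layer 5 here was a single cluster per cohort (340 and 1227 nuclei), led by Tshz2, and larger pyramidal clusters with Colq or Npsr1 among their leading genes stayed without a layer name. Pcsk2os2, inside a prohormone convertase gene, differed by -2.13 (SE 0.18). The 2 members with the most UMIs did not pass. Nrg3os was at 215 CPM pooled in pyramidal and 195 in inhibitory nuclei, a log2 difference of -0.17 (SE 0.16), and Cdr1os at 496 and 453 CPM, a difference of -0.21 (SE 0.19).

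A fit of pyramidal and inhibitory sums alone, added after the data were seen, tested 136 members and called 65, 42 higher and 23 lower in inhibitory nuclei, where 53.4% of 15580 genes passed, 29.3% higher and 24.1% lower. The following members were chosen after their values were seen, and those that are rare in pyramidal nuclei passed the filter through the inhibitory sums, so their differences are descriptions only. Tmem132cos differed by 7.04 (SE 0.24), with 30.9 CPM pooled in PV and 20.7 in SST nuclei. Egfros differed by 6.75 (SE 0.50) with 16.1 CPM pooled in VIP nuclei against 0.17 in PV and 0.20 in SST nuclei. Gad1os differed by 5.75 (SE 0.27), and its partner Gad1, the gene of the GABA-making enzyme, was left out when clusters were named. Ptgs2os was lower by -3.10 (SE 0.26) in inhibitory nuclei, with 18.4 CPM pooled in layer 2/3 and 2.04 in layer 5.

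Glial nuclei had their own members. Emx2os was at 237 to 268 CPM over libraries in astrocyte nuclei and at 0.93 to 6.42 CPM in pyramidal nuclei, a log2 difference of 6.31 (SE 0.21). Nkx2-2os, named after an oligodendrocyte-lineage homeobox gene, differed by 7.29 (SE 0.29) in astrocytes, with 90.8 CPM pooled there, 62.6 in oligodendrocyte precursors and 0.54 in pyramidal nuclei. It was also higher in oligodendrocytes, by 6.58 (SE 0.52), and in microglia, by 3.90 (SE 0.81). Called doublets were 2.35% of microglial nuclei in cohort 1 and 9.04% in cohort 2. The part of RNA from other glial classes in these levels was not tested. Prdm16os differed by 7.37 (SE 0.27) in astrocytes. Nrg3os was lower in astrocytes by -4.05 (SE 0.28), Rapgef4os1 by -4.11 (SE 0.37) and Pcsk2os2 by -4.59 (SE 0.48). Cdr1os also passed as lower, with log2 differences of -2.18 in astrocytes, -1.01 (SE 0.23) in oligodendrocyte precursors and -0.57 (SE 0.22) in oligodendrocytes. Its estimate in microglia, -0.48 (SE 0.20), did not pass. Oligodendrocyte precursors differed from pyramidal nuclei in 20 of 42 members (background 39.8%), among them Bcas1os2 at 9.10 (SE 0.36), whose partner is a gene of myelinating cells. In oligodendrocytes 11 of 42 differed (background 25.9%), with Bcas1os2 at 7.59. In microglia 15 of 42 differed (background 29.2%), among them Adap2os at 6.90 (SE 0.36). Zeb2os, named like Adap2os after its values were seen, differed by 2.75 (SE 0.29).

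**Figure D3:**
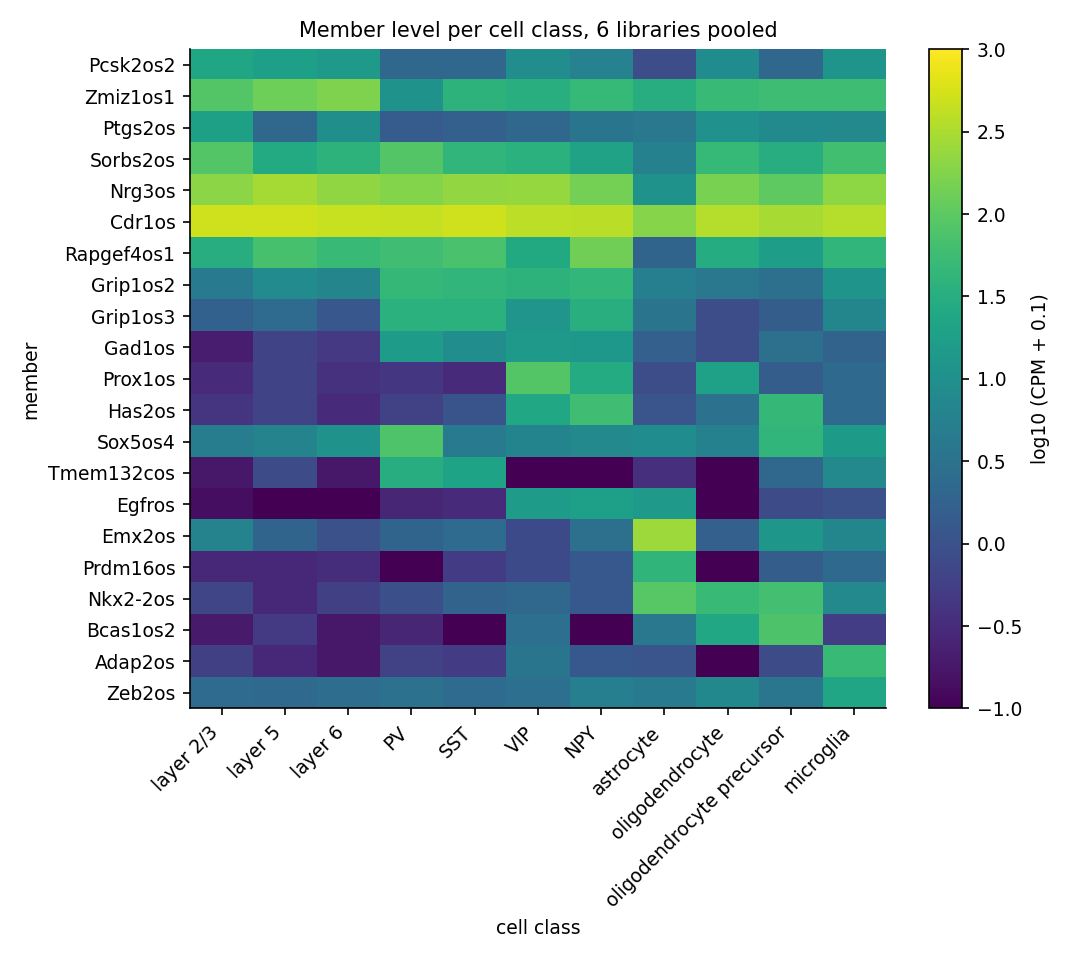
Level of 21 members (rows) in 11 cell classes (columns) as log10 of CPM plus 0.1, from counts pooled over the 6 libraries. Emx2os is brightest in astrocytes, Prox1os in VIP nuclei at 86.2 CPM, Sox5os4 in PV nuclei at 79.4 CPM and Adap2os in microglia. Cdr1os is at 191 CPM or above in every class shown, but was lower in astrocytes, oligodendrocyte precursors and oligodendrocytes than in pyramidal nuclei. The part of neuronal RNA in these levels was not tested.

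Whether a member kept step with its partner between classes was asked of the ratio of their counts. Over 132 pairs with at least 10 member UMIs in both classes, the log2 ratio of member to partner (with 0.5 added to each count) was higher in inhibitory than in pyramidal nuclei for 81, with a median of 0.12. No pair passed after Benjamini-Hochberg adjustment in the exact sign-flip permutation test over 6 libraries (2-sided). The difference had the same sign in all 6 libraries for 30 pairs, 19 up and 11 down, which gave the smallest p that 6 libraries allow and an adjusted p of 0.1375. Epb41l4aos, a downstream lincRNA, had the largest difference at -4.38 (SD 0.17, n = 6), from -4.59 to -4.19. Its own level was 2.36 CPM pooled in pyramidal and 3.85 in inhibitory nuclei, while Epb41l4a had 130 UMIs in pyramidal and 400 in the fewer inhibitory nuclei. Kcnab3os followed at -3.13 (SD 0.87, n = 6), and Ptgs2os at -1.98 (SD 1.39, n = 6). On the other side, Sox5os4 was at 1.54 (SD 0.41, n = 6) and Grip1os3 at 1.38 (SD 0.31, n = 6), so both differed more than their partners did. Epb41l4aos, Kcnab3os and the ratio of Ptgs2os were singled out after their values were seen. Nrg3os and Nrg3 moved nearly together, with a difference of 0.10 (SD 0.10, n = 6).

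**Figure D4:**
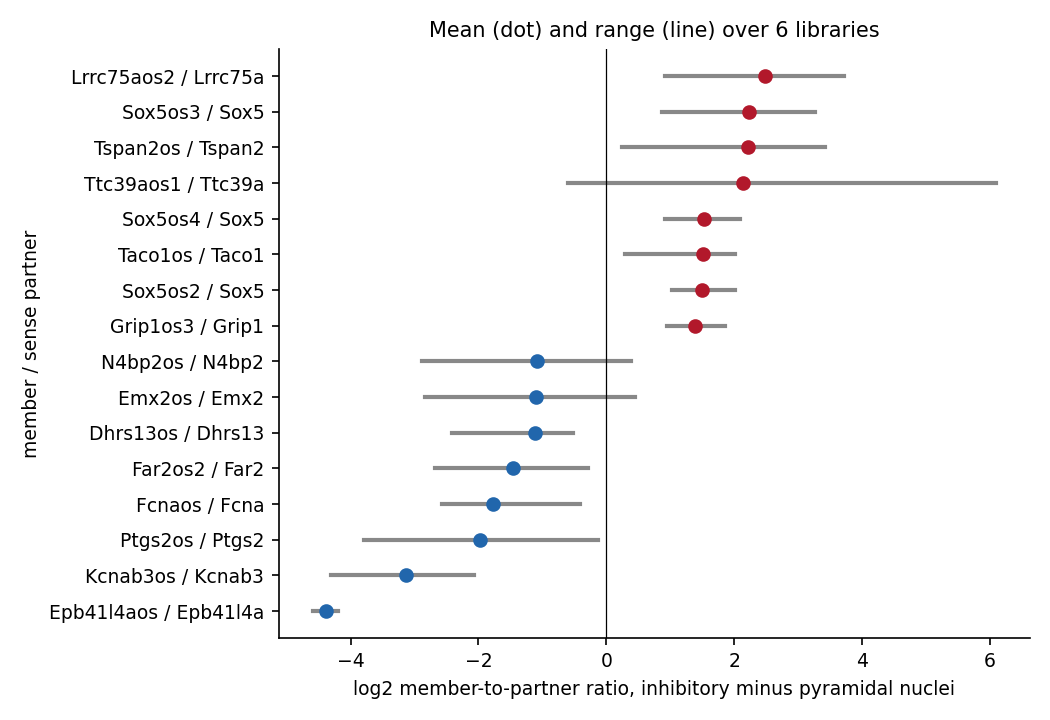
Log2 ratio of member to partner counts in inhibitory minus pyramidal nuclei for the 16 pairs with the largest mean differences, 8 in each direction, with a dot for the mean and a line for the range over 6 libraries. Epb41l4aos at -4.38 has the narrowest line and Ttc39aos1 the widest, crossing 0.

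The share of a gene's UMIs that fell in called nuclei, rather than in other barcodes, was compared within 143 pairs that had at least 10 UMIs of both genes in every library, a minimum set after the data were seen. The member's share was above its partner's in 99 pairs, with a median difference of 7.43 percentage points. In 52 pairs it was above in all 6 libraries and in 21 below in all 6. With all barcodes within the limits of genes and mitochondrial RNA in place of nuclei, the mean was above in 98 pairs with a median of 5.40 points, but only 4 pairs were above and 9 below in all 6 libraries. By library, the member was above in 96 to 104 pairs, except in Sed GH of cohort 1, with 77 of 143 and median shares of 21.1% for members and 20.9% for partners. No pair passed after adjustment (smallest adjusted p 0.0612, exact sign-flip permutation test over 6 libraries). With no upper limit of genes per nucleus, 90 pairs passed, 69 with the member above and 21 below. Each pair with 1 sign in all 6 libraries has the smallest p that 6 libraries allow, and whether it passes depends on how many such pairs there are. Of 68 members inside the partner, 59 were above, with median shares of 67.4% for the member and 57.4% for the partner. All 5 downstream members were below. Nrg3os had 46.5% (Run) and 19.9% (Sed) of its UMIs in nuclei in cohort 1, against 31.2% and 14.8% for Nrg3, and in cohort 2 it had 89.0% to 91.8% against 73.0% to 83.3%. Its mean difference was 11.3 points (SD 4.21, n = 6). Oip5os1 was at the other end, 35.1 points below the 56.1% of Oip5 on average, as was Wdr83os, a protein-coding member, at 14.2% against 47.3% for Wdr83. Shares followed the library, since the share over all UMIs was 19.0% in Sed GH of cohort 1 and 61.9% in Run GH of cohort 2.

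**Figure D5:**
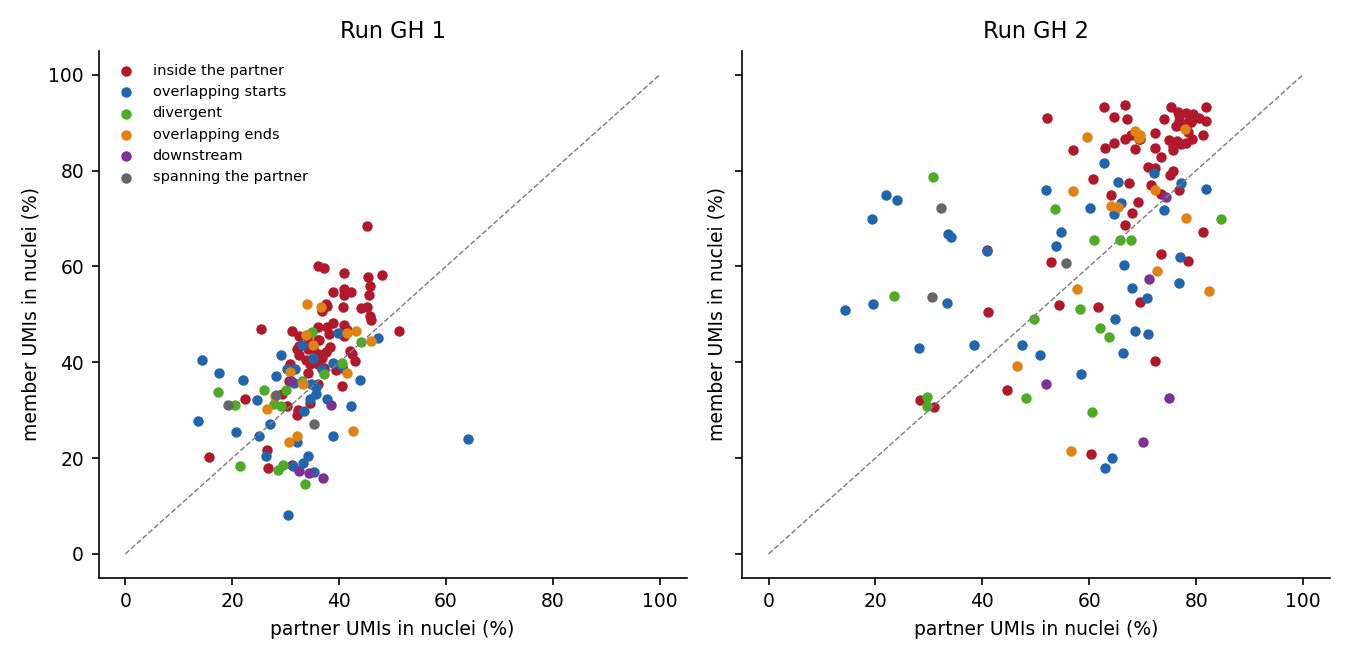
Percent of a gene's UMIs that lay in called nuclei, member (vertical axis) against sense partner (horizontal axis), for 143 pairs in Run GH of cohort 1 (left) and of cohort 2 (right), with colours for the member's position and a dashed line of equal shares. The member lay above the line in 96 pairs on the left and 97 on the right, most of them inside their partner. In Sed GH of cohort 1, which is not drawn, it lay above in 77.

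Last, detection of both transcripts in the same nuclei was compared in pyramidal nuclei thinned to 1000 UMIs each, which left out 622 nuclei of Sed GH of cohort 2 and none of the others. For 23 pairs with at least 20 member-positive nuclei in each library, the odds ratio of a partner UMI with and without a member UMI was computed within clusters. In 13 pairs the mean log2 odds ratio was above 0 and the median was 0.12. No pair passed after adjustment. In 6 pairs it was above 0 in all 6 libraries, in none below 0 in all 6. These were Sorbs2os (0.25), Rapgef4os1 (0.26), Srrm4os (0.35), Macrod2os1 (0.37), Slc7a6os (0.60) and Hectd2os (0.68), each with the smallest p that 6 libraries allow and an adjusted p of 0.12 in the exact sign-flip permutation test over 6 libraries. For Sorbs2os in Sed GH of cohort 2, Sorbs2 was detected in 61.9% of nuclei with a Sorbs2os UMI and in 51.2% of those without. Without Sed GH of cohort 2 the median log2 odds ratio over pairs was 0.046, with 13 of 24 pairs above 0, and with a minimum of 10 member-positive nuclei it was 0.042, with 21 of 39. Without thinning, and with quintiles of UMIs per nucleus added to the clusters as strata, 61 of 70 pairs were above 0, 20 of them in all 6 libraries.

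As a wider reference, 18 other antisense or regulatory RNAs were listed, among them Meg3, Malat1 and Kcnq1ot1. Of these, 16 were in the table and 15 could be tested. None changed between Run and Sed or between SI and GH. In cohort 2, 2 were higher and 7 lower (median log2 change -0.29), where 39.3% of genes passed (20.9% higher and 18.4% lower). In inhibitory nuclei 6 of 14 were higher and 1 lower, where 53.4% of genes passed (32.3% higher and 21.1% lower). The cohort median of these RNAs was below 0 where that of the members was 0.75 and that of all genes lay near 0.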

How the data were processed

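The deposited files were UMI count matrices, 1 per library, of all barcodes and 32285 genes. Per the labels and the study's methods, the authors made these counts with a Chromium Single Cell 3′ V3 kit, Cell Ranger 6.0.0 and mm10, including introns. The file headers name another Cell Ranger version, and the strand setting was not given in the sources used here. Precision was set by the depth, 19134955 to 188952936 UMIs per library, and intervals of counting were not used across pools.

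Nuclei were barcodes with 500 to 4000 genes and at most 1% mitochondrial UMIs, above a minimum of 620 to 3155 UMIs per library. The minimum was the 99th percentile of UMIs, divided by 10, over as many of the largest barcodes as the study states nuclei. It left more nuclei than stated in Sed GH of cohort 2, where 5826 of 5827 barcodes within the limits passed, and fewer in the other libraries. They were normalized, reduced to 35 principal components of 3000 variable genes without members and partners, and clustered (scanpy 1.11.5, Leiden resolution 0.6). Clusters were named from fixed markers, without those that were partners of members. Doublets were marked, and single doublets were left out only as an alternative. Subclusters of inhibitory and astrocyte nuclei rich in doublets or in markers of other classes were moved to the unnamed nuclei throughout. In cohort 2 these included an inhibitory subcluster of 348 nuclei (77.9% doublets) and an astrocyte subcluster of 227 (55.1%). The other classes had no such step.

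Counts summed per library, or per library and class, were fitted over all genes with edgeR 4.0.16 (quasi-likelihood, TMM, filterByExpr, R 4.3.3), with cohort as the block for conditions (2 residual degrees of freedom) and library as the block for classes. DESeq2 1.42.0 was an alternative. The cohort number in the sample titles marks the libraries of a cohort, and this is the pairing. Ratios, shares and odds ratios used an exact sign-flip permutation test over 6 libraries. The threshold was 0.05 after Benjamini-Hochberg adjustment. The fitting steps were tested on simulated data. Positions came from a GENCODE annotation of GRCm38. Members with the largest UMI totals (20) and up to 10 members per contrast and direction past the test were named, with other names marked as chosen after seeing values. Members and gene lists were chosen with earlier results of these data known. Normalization, filters on low counts and on nuclei, doublets, blocks, pseudocounts and each library were varied. No column of another sample was used.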

Additional observations from a re-analysis of the deposited data

Results flagged for a closer look

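The difference between Run and Sed libraries had opposite directions in the cohorts for many members, and a test of that contrast was added after this had been seen, from the term for the Run effect in cohort 2 minus that in cohort 1 (edgeR, Benjamini-Hochberg adjustment). It passed for 51 of 188 members in all nuclei, where 10.3% of genes passed, and for 43 of 176 in pyramidal nuclei, where 9.24% passed. The calls rest on the spread within cohort 2 alone, with 1 residual degree of freedom and 1 Run and 1 Sed pool in cohort 1, and an effect of the maternal environment cannot be told apart from a difference between single libraries. Among the 20 most abundant members, the log2 difference was -2.71 for Far1os, -2.68 for Macrod2os1, -2.50 for Sorbs2os, -2.33 for Nrg3os, -2.19 for Pcsk2os2, -1.31 for Rapgef4os1 and -1.13 for Dtnbos, which all lie inside their partners. It was -1.01 for Mkln1os, which overlaps the start of Mkln1, and -0.94 for Brip1os, which is divergent from Brip1. Of the members outside this list, Phf2os1 passed in the opposite direction, at 1.54, and was named after its values were seen. The cohort 1 pair also differed in the share of UMIs in nuclei, 32.9% (Run) and 19.0% (Sed), and the part of this in the differences was not tested.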

How the results depend on the processing

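With 1 library per condition and cohort, leaving out a library changed the main counts. Without either cohort 1 library, the cohort term took up the other. Run against Sed then rested on cohort 2, as in the fit of cohort 2 alone, so these fits are not separate comparisons. Run against Sed called 0 to 63 members in all nuclei over the libraries left out, 60 (13.9% of genes) without Run GH of cohort 1 and 63 (15.6%) without Sed GH of cohort 1, and 59 (13.4%) in cohort 2 alone. In pyramidal nuclei the range was 0 to 57, with 49 (12.3%) without Run GH and 57 (13.3%) without Sed GH of cohort 1. In inhibitory nuclei it was 0 to 10, with 10 without either (3.02% and 2.94%), and 1 with no filter on low counts. Cohort 2 against cohort 1 called 34 to 106 members, 106 (47.9% of genes) without Run GH and 92 (49.4%) without Sed GH of cohort 1, and 39 (23.6%), 34 (21.3%) and 36 (22.5%) without Sed GH, Run SI and Sed SI of cohort 2. The log2 Run effect ran from -0.85 to 0.33 for Nrg3os, from -1.06 to 0.26 for Sorbs2os, from -1.50 to 0.035 for Macrod2os1 and from -0.14 to 0.012 for Cdr1os, with the values above 0 found without a cohort 2 library. Micos10 in cohort 2 was at 0.47 with all barcodes in place of nuclei, and the cause was not tested.

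Inhibitory against pyramidal nuclei called 41 of 204 members with DESeq2 (29.7% of genes), 62 of 204 with no filter on low counts (28.2%) and 65 of 136 with these classes alone (53.4%). More members were tested in each. DESeq2 also changed the test, and the fit of these classes alone also changed the sums fitted. Without the replicate block (library), 7 of 39 were called (23.6%) in place of 22 of 42. Without the cohort as the block, Run against Sed and SI against GH called 0 members as before. Astrocytes against pyramidal nuclei called 76 of 204 with DESeq2 (42.9%) and 81 of 204 with no filter (35.9%). With no upper limit of genes per nucleus, 90 pairs passed in the share of UMIs in nuclei, 69 of them with the member above. Of 741 values of single members under alternatives, 651 kept their direction and side of the threshold, 60 no longer passed, 17 newly passed and 13 reversed. Depth limited the fits of conditions in all nuclei to the 179 of 204 members that passed the filter on low counts.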
